A study of Bos taurus and Sus scrofa with 6 samples.

Results

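CD74, B2M, CIITA, CTSS and TAP1 are 5 genes of the machinery with which cells show peptides to T cells. They were chosen by symbol from the gene tables of a single-cell RNA-sequencing study of the prepubertal testis, in which 5 of 19994 genes listed for cattle and 5 of 22694 genes listed for pig carry these names. The samples were testes taken by castration from prepubertal animals, 3 cattle of the Holstein breed at 4.5 months of age and 3 pigs of mixed breed at 3 months of age, none of them treated. Testis tissue was digested to single cells, about 8000 live cells per animal were loaded for droplet capture, and each animal gave 1 library. The gene identifiers are ENSBTAG00000015228 (CD74), ENSBTAG00000012330 (B2M), ENSBTAG00000020649 (CIITA), ENSBTAG00000017135 (CTSS) and ENSBTAG00000008953 (TAP1) in cattle. In pig they are ENSSSCG00000033262 (CD74), ENSSSCG00000004687 (B2M), ENSSSCG00000007901 (CIITA), ENSSSCG00000006648 (CTSS) and ENSSSCG00000025618 (TAP1).

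MHC class I molecules sit on most nucleated cells and present peptides made inside the cell. B2M is their invariant light chain, and TAP1 is a subunit of the pump that carries peptides into the endoplasmic reticulum. MHC class II molecules are made mainly by macrophages, dendritic cells and B cells. CD74, the invariant chain, fills their groove until it is cut away in endosomes, in which the protease CTSS takes the last steps, and CIITA is the coactivator that switches class II genes on. The testis is known as an immune-privileged organ, in which Sertoli cells wall off developing germ cells behind tight junctions while macrophages, vessels and Leydig cells lie in the interstitium outside the tubules.

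The DNA before the gene start was read for pig, whose genome build in these data, Sscrofa11.1, is that of the RefSeq annotation. On that build CD74 lies at chr2:151402210-151409924 on the minus strand, B2M at chr1:126837721-126844043 on the minus strand and CIITA at chr3:32171706-32230775 on the minus strand. CTSS lies at chr4:98415273-98442952 on the plus strand and TAP1 at chr7:25062772-25071989 on the minus strand. The 250 bases before the start are printed for 3 members, since letters of the boxes known to bind class II and interferon-responsive factors stand there. The windows are chr2:151409925-151410174 for CD74, chr1:126844044-126844293 for B2M and chr7:25071990-25072239 for TAP1, each given 5′ to 3′ on the strand of the gene, with capitals marking the motifs searched.
CD74: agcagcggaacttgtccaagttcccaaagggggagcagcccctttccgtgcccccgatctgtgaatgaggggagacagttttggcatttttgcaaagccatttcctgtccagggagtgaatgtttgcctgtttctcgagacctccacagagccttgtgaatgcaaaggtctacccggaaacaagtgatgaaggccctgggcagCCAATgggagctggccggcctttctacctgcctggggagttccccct
B2M: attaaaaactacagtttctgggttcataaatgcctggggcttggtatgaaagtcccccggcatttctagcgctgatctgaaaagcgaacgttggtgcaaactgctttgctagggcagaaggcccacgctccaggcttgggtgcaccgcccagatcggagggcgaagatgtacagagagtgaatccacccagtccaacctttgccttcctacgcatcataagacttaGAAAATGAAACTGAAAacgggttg
TAP1: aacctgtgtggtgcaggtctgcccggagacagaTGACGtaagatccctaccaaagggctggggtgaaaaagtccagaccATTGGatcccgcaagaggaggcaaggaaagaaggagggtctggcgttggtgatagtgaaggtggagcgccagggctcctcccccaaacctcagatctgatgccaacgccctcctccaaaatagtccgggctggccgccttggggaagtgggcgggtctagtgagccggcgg

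Positions were counted back from the gene start, the base just before it being the first, and both strands were searched. CD74 held CCAAT, the core of the Y box of class II promoters, at -47. B2M held GAAA followed after any 2 bases by GAAA, the repeat of interferon-stimulated response elements, at -24 and again at -18, and the 2 matches overlap. TAP1 held TGACG, part of the X2 box, at -217 and CCAAT on the other strand at -171. The windows of CTSS and CIITA held none of these 3 motifs. Of 19559 pig gene windows of the same length, 31.9% held CCAAT, 19.6% TGACG and 3.01% the GAAA repeat. The annotation holds a second B2M model at chr1:126865767-126878501, partial and on the same strand, which matched the first at 99.6% over 510 aligned bases with 2 mismatches. The partial model has 514 bases, beside 1038 to 1105 in the models of the first. Of its 50-base windows, 86.9% to 97.4% occurred unchanged in those models. When the last 300 bases of each were set side by side, 13 to 37 bases aligned, with 5 to 16 mismatches. With models of such unlike length these are not the same stretch, so this does not show that the 3′ ends differ. Whether reads were split between these models or left out in counting was not tested.

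Cells were sorted into types by clustering without the 5 genes, the other genes of the presentation lists or genes named BOLA or SLA, and by markers other than these, and each type is named with "-like". Each type's own marker list ranged between 932 and 153549 CPM (UMIs of a gene or list per 1000000 UMIs of the summed cells) over the sums per animal in both species. The types were named by these lists, so the levels describe the types and are no check of their names. Total UMIs (unique molecular identifiers, 1 per captured RNA molecule) were 5805223, 27409347 and 53325608 in cattle 1, 2 and 3 and 6245189, 40099873 and 33500750 in pig 1, 2 and 3, and the median UMIs per cell ranged from 789 to 5878. Cells kept numbered 3444, 8138 and 5900 in cattle and 3162, 3808 and 2236 in pig. Barcodes shared between libraries were near the number chance gives, for example 61 between cattle 2 and 3, beside 65.1. Sums of fewer than 20 cells were left out of the fits, which took out the stromal-like and endothelial-like cells of pig 1 (17 and 5 cells) and the dendritic-like cells of pig 2 (13 cells), and left those pig types with 2 animals. Cattle 1 had only 24 endothelial-like cells with 16975 UMIs in all. Pig 3 stood apart in ISG15, an interferon-stimulated gene, as given with B2M.

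Dendritic-like cells of cattle and pig did not rest on the same markers. FLT3, PLD4 and IRF8 counted in both species, CLEC9A and BATF3 only in the cattle cluster, and BCL11A and TCF4 only in the pig clusters, so no test between species was made for them. Macrophage-like cells counted all 12 markers of their list in both species, and lymphocyte-like cells carried T cell genes such as CD3E.

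Among the named types, CD74 was highest in dendritic-like and macrophage-like cells of cattle and in macrophage-like cells of pig, and endothelial-like cells came next in both species. An unnamed pig cluster with dendritic markers, given below, stood above every named type of the pigs. Levels were summed per animal and type and scaled by depth. In cattle 1, 2 and 3, dendritic-like cells had 41432, 40125 and 37412 CPM of CD74. Macrophage-like cells had 23968, 18088 and 17088 CPM in the same order. Endothelial-like cells had 2651, 3521 and 1574 CPM, and stromal-like cells 699, 789 and 426 CPM. These 4 types stood in that order in every animal, with no overlap between neighbours. Below them, lymphocyte-like cells had 201 to 345 CPM, Leydig-like cells 160 to 194, germ-like cells 112 to 293 and Sertoli-like cells 102 to 195. The ranges of the last 3 overlapped, and that of lymphocyte-like cells overlapped with germ-like cells.

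In pig 1, 2 and 3, macrophage-like cells had 23324, 14625 and 9401 CPM of CD74, above every other named type. Endothelial-like cells of pig 2 and 3 had 1978 and 3228 CPM, dendritic-like cells of pig 1 and 3 had 2160 and 2682 CPM, and lymphocyte-like cells of the 3 animals had 1424, 884 and 2247 CPM. These 3 types overlapped. Stromal-like cells of pig 2 and 3 had 219 and 836 CPM. Pig CD74 in the lymphocyte-like cells lay above the cattle range of that type, but levels were not tested between species. Leydig-like cells had 74.9 to 218 CPM, Sertoli-like cells 37.6 to 91.4 and germ-like cells 28.0 to 88.0, all overlapping. B cell-like cells reached 20 only in pig 3, with 72 cells and 1109 CPM.

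**Figure D1:**
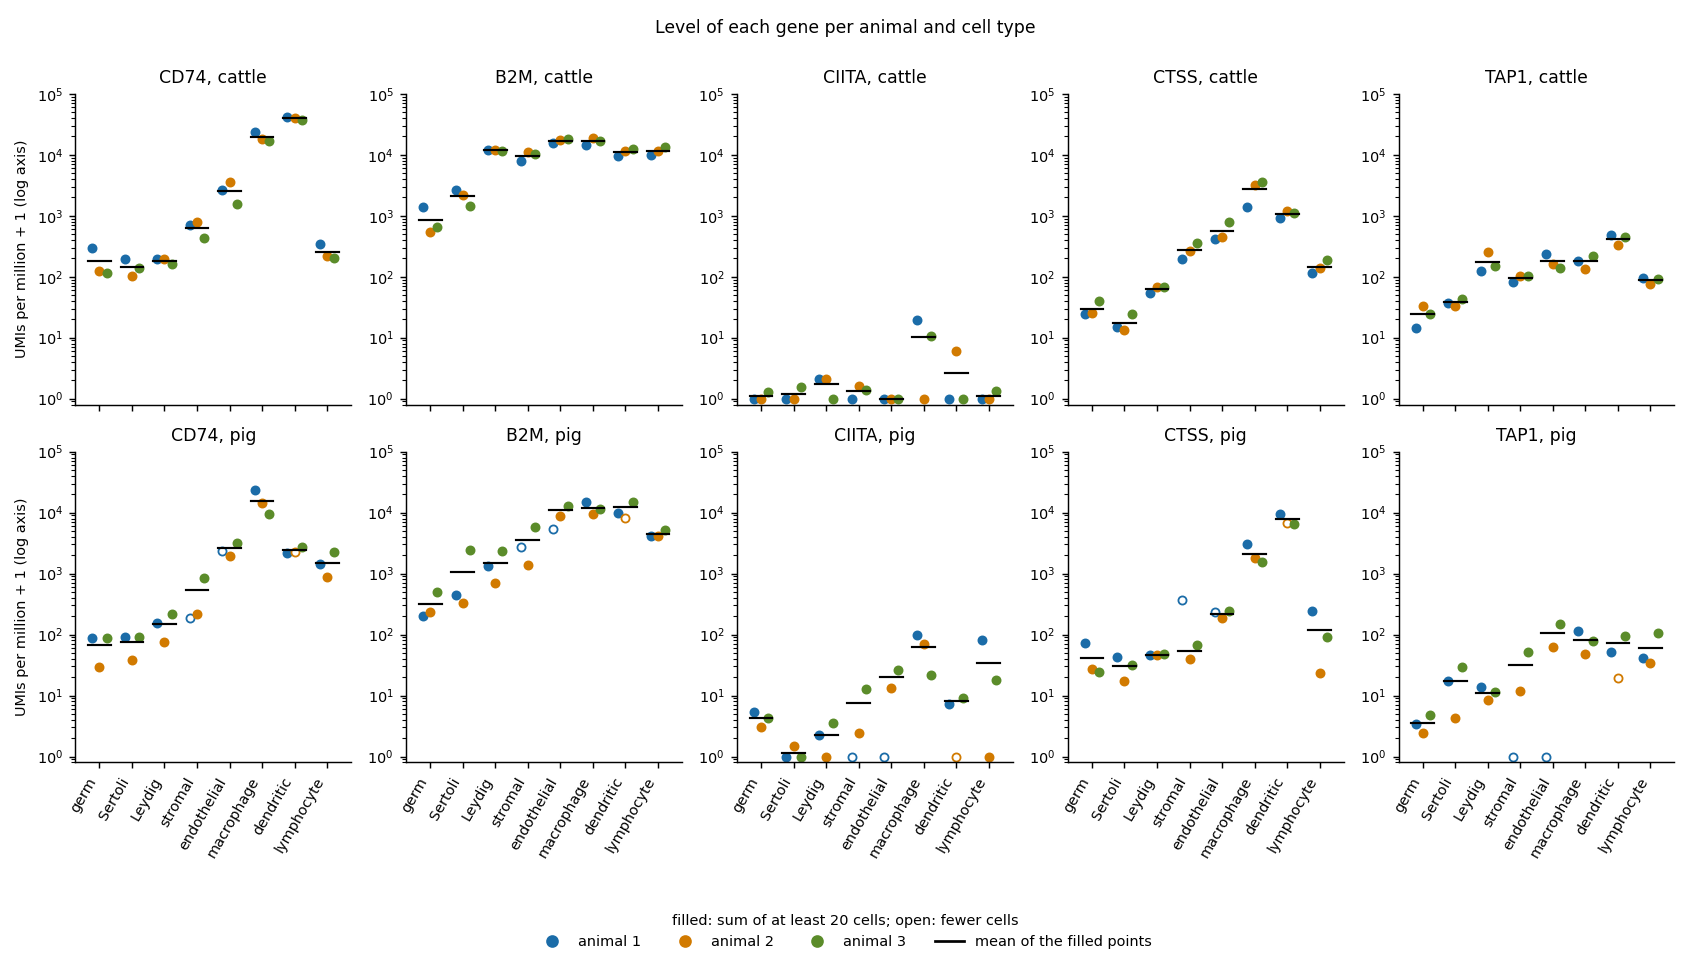
Level of each of the 5 genes in CPM plus 1 (log axis) for each named cell type, with 1 point per animal, filled for sums of at least 20 cells and open for fewer, and a bar at the mean of the filled points. Among the types shown, CTSS is highest in macrophage-like and dendritic-like cells of both species, CD74 in these 2 types in cattle and in macrophage-like cells in pig, B2M is lowest in germ-like cells, and cattle CIITA has few points above 0. Unnamed clusters are not shown.

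Taken to the same depth, the share of cells with a CD74 UMI kept this order at its top. Each cell was thinned to 500 UMIs, which left out 317 of 17073 cattle cells (1.86%) and 0 of 7520 pig cells, since pig cells were called only from 696 UMIs up. In cattle, 100% of dendritic-like, 99.8% ± 0.346 of macrophage-like, 66.9% ± 18.4 of endothelial-like and 24.2% ± 5.35 of stromal-like cells had a UMI (SD, n = 3). Lymphocyte-like cells were at 8.36% ± 0.468, germ-like cells at 12% ± 7.38, Leydig-like cells at 7.55% ± 2.32 and Sertoli-like cells at 6.38% ± 2.29. The unthinned shares of germ-like and Sertoli-like cells were 59.7% ± 15.1 and 30.9% ± 19.0, with median depths of 3514 to 16908 and 1234 to 6320 UMIs per cell. In pig the thinned share was 95.3% ± 6.88 in macrophage-like and 33.4% ± 13.7 in lymphocyte-like cells (n = 3), 64.0% ± 14.4 in endothelial-like and 59.6% ± 4.60 in dendritic-like cells (n = 2), and 2.52% ± 2.01 to 6.34% ± 3.45 in Sertoli-like, germ-like and Leydig-like cells (n = 3).

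**Figure D2:**
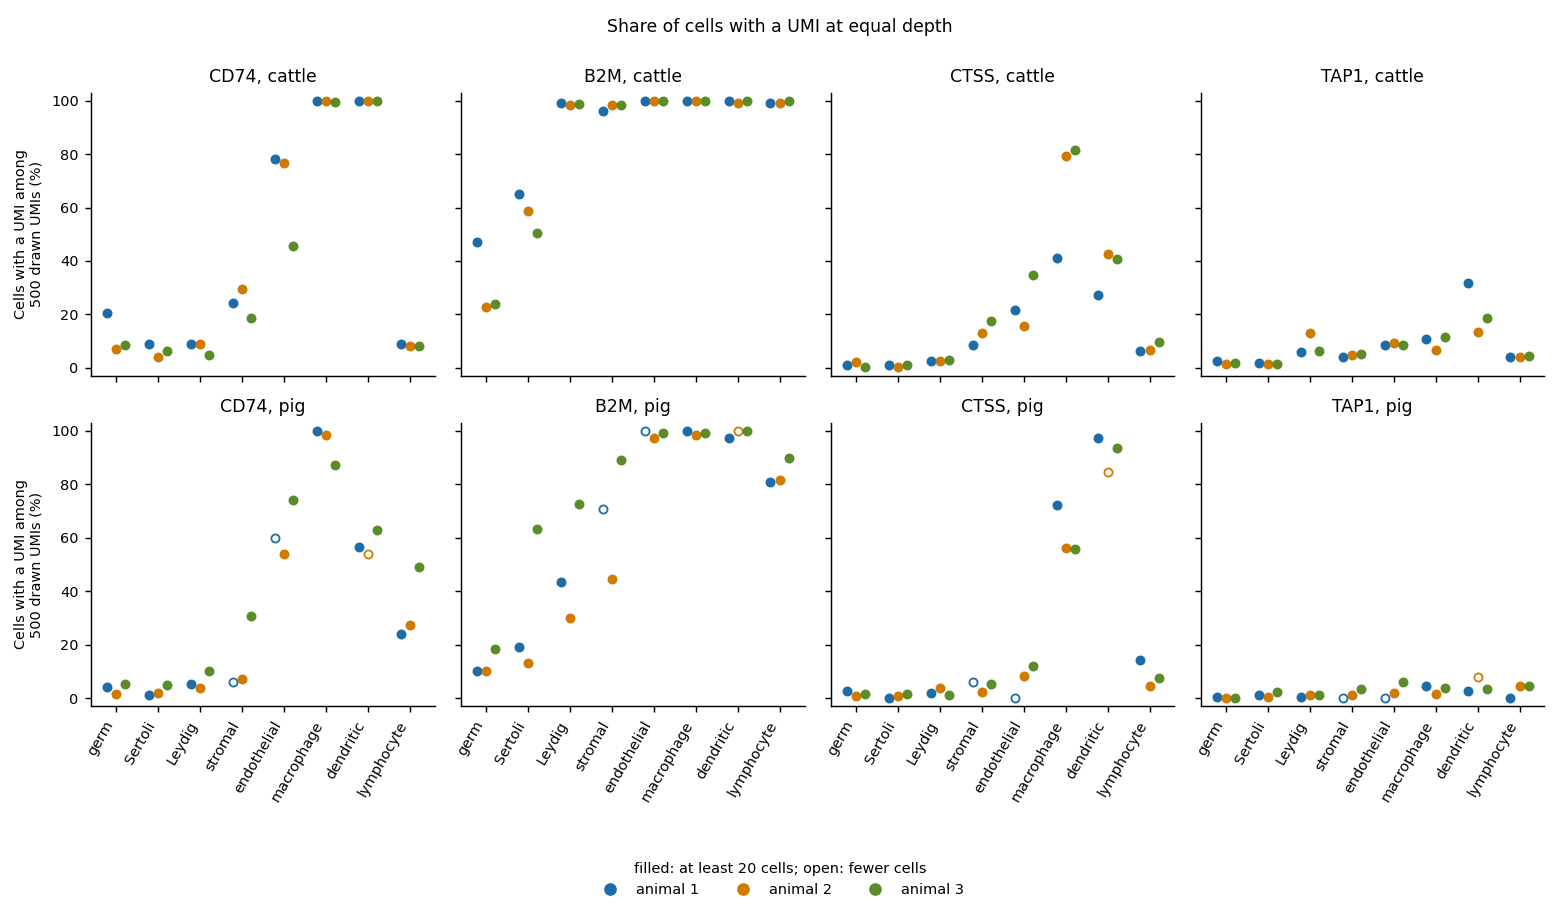
Share of cells (%) with a UMI of CD74, B2M, CTSS or TAP1 after each cell was thinned to 500 UMIs, with 1 point per animal, filled for at least 20 cells and open for fewer. On average CD74 is most frequent in dendritic-like and macrophage-like cells of cattle and in macrophage-like cells of pig. It is low in germ-like, Sertoli-like and Leydig-like cells of both species, which are not set apart from each other. For B2M, cattle germ-like cells are at 31.2%, beside 97.6% or more in stromal-like, Leydig-like, endothelial-like and immune cells, which B2M does not tell apart.

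Free RNA of macrophages was present in the droplets, and CD74 was therefore set against the C1Q genes C1QA, C1QB and C1QC, complement genes that macrophages make. In cattle macrophage-like cells there were 1.11, 0.458 and 0.595 CD74 UMIs per C1Q UMI in animals 1, 2 and 3. In germ-like cells the ratio was 1.0, 1.15 and 0.625, in Sertoli-like cells 0.610, 0.969 and 0.649, in Leydig-like cells 0.751, 1.05 and 0.591 and in lymphocyte-like cells 0.574, 0.527 and 0.600. The cattle empty droplets, barcodes with at most 50 UMIs, had 0.329, 0.615 and 0.447 and held CD74 at 1212, 974 and 901 CPM. In cattle 1 these 4 types stood below the macrophage-like ratio and in cattle 3 between 0.591 and 0.649, beside 0.595, but in cattle 2 all 4 stood above it. CD74 lay below its level in the empty droplets in all 4 types of every cattle animal. Free RNA is only a part of a cell's UMIs, so this cannot tell expression from its absence, and neither is read there. Per C1Q UMI, germ-like, Sertoli-like and Leydig-like cells stood above the empty droplets of the same animal in all cattle. Lymphocyte-like cells did so in cattle 1 and 3 but not in cattle 2. How much of the CD74 in these types was free RNA was not tested. Stromal-like cells had 1.81, 4.96 and 1.59 CD74 UMIs per C1Q UMI, endothelial-like cells 4.09, 40.5 and 3.48 and dendritic-like cells 198, 155 and 50.2, all above the macrophage-like ratio of the same animal. Stromal-like cells still lay below the empty droplets in their CD74 level, while endothelial-like and dendritic-like cells lay above them in each animal.

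In pig, whose files hold no empty droplets, the macrophage-like ratio was 3.21, 2.74 and 0.868. Germ-like cells had 3.16, 4.17 and 1.38, Leydig-like cells 2.84, 3.33 and 2.12 and Sertoli-like cells 5.50, 5.01 and 0.732, some of them from few UMIs (2 C1Q UMIs in the Sertoli-like cells of pig 1). Endothelial-like cells had 181 and 37.3 in pig 2 and 3, dendritic-like cells 15.5 and 6.86 in pig 1 and 3, and lymphocyte-like cells 35.0 and 25 in pig 1 and 3. The lymphocyte-like ratio of pig 1 rested on 1 C1Q UMI, and pig 2 had 0 there and so no ratio. Stromal-like cells had 9.12 and 4.01 in pig 2 and 3. CD74 in those 4 types was above the macrophage-like ratio of the same animal. Germ-like and Leydig-like cells also stood above it in pig 2 and 3, and Sertoli-like cells in pig 1 and 2.

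**Figure D3:**
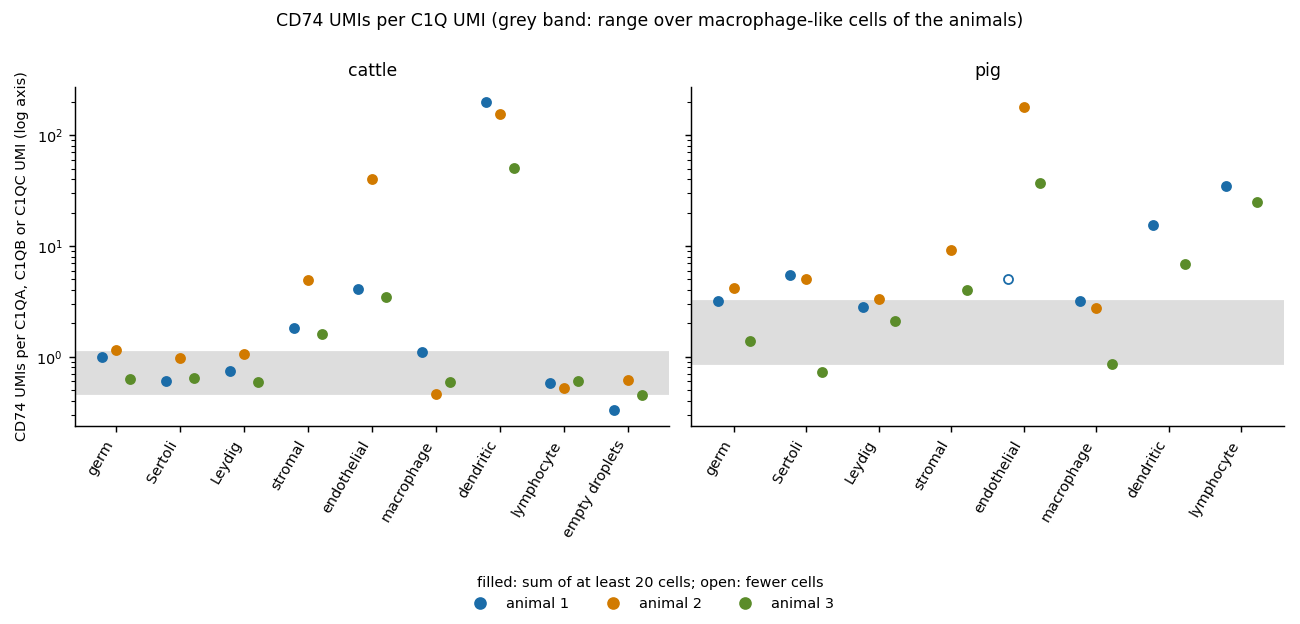
CD74 UMIs per UMI of C1QA, C1QB or C1QC (log axis) by cell type and, for cattle, in empty droplets, with 1 point per animal and a grey band over the range of macrophage-like cells. Cattle germ-like, Sertoli-like, Leydig-like and lymphocyte-like cells lie within the band except germ-like cells of cattle 2 at 1.15, and endothelial-like and dendritic-like cells lie above it in both species. The band spans all animals of a species, and in cattle 2 each of the former types lies above the macrophage-like cells of that animal.

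CIITA was close to the limit of detection in cattle. Its UMIs in macrophage-like cells of cattle 1, 2 and 3 numbered 1, 0 and 7, in stromal-like cells 0, 4 and 5, in Sertoli-like cells 0, 0 and 5 and in dendritic-like cells 0, 1 and 0. Endothelial-like cells had none, which allows up to 177, 21.7 and 13.8 CPM in animals 1, 2 and 3. Cattle dendritic-like cells, at the top for CD74, therefore gave a single CIITA UMI, and a difference in CIITA was not detectable there at this depth.

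Pig CIITA was counted in more cells. Macrophage-like cells of pig 1, 2 and 3 had 6, 16 and 30 UMIs, or 98.5, 67.8 and 20.5 CPM. Endothelial-like cells of pig 2 and 3 had 25 and 69 UMIs, or 12.4 and 25.7 CPM. Lymphocyte-like cells had 2, 0 and 11 UMIs. The means of these 3 types, 62.3 ± 39.3, 19.1 ± 9.40 and 32.9 ± 42.9 CPM (SD, n = 3, 2 and 3), overlapped. Germ-like cells had 9, 7 and 38 UMIs at 4.40, 2.04 and 3.28 CPM, and Sertoli-like and Leydig-like cells 5 and 2 UMIs over the 3 animals. An unnamed pig cluster with dendritic markers, given below, held CIITA above each named type of the same animal.

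Among the named types, CTSS was highest in macrophage-like cells of cattle and in dendritic-like cells of pig. Dendritic-like cells of the 2 species rest on different markers, and this difference in order was not tested. A small unnamed cattle cluster, given below, stood above both of these cattle types. An unnamed pig cluster with dendritic markers, also given below, stood under the pig macrophage-like cells. In cattle 1, 2 and 3, macrophage-like cells had 1367, 3192 and 3638 CPM, above dendritic-like cells with 908, 1177 and 1089 CPM. In pig, dendritic-like cells of pig 1 and 3 had 9345 and 6561 CPM, above macrophage-like cells with 3053, 1770 and 1568 CPM. The order of these types held in every animal of each species that had both. Endothelial-like cells followed with 412, 449 and 794 CPM in cattle and with 189 and 238 CPM in pig 2 and 3. Every neighbour in the cattle order was separate, down to germ-like (23.9 to 38.3 CPM) and Sertoli-like cells (12.3 to 23.1 CPM), while all pig types from endothelial-like cells down overlapped with the next. The cattle empty droplets held CTSS at 141, 189 and 285 CPM, above lymphocyte-like, Leydig-like, germ-like and Sertoli-like cells of the same animal, and how much CTSS in these types was free RNA was not tested.

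B2M, the light chain, was lowest in germ-like cells of both species. In cattle 1, 2 and 3, endothelial-like cells had 15317, 17469 and 18109 CPM and macrophage-like cells 14345, 18516 and 16859 CPM, which overlapped. Leydig-like cells had 12037, 12189 and 11670 CPM, and lymphocyte-like, dendritic-like and stromal-like cells 7985 to 13371 CPM. Sertoli-like cells had 2606, 2183 and 1432 CPM, and germ-like cells 1374, 539 and 644 CPM. Both tubule types lay below every other named type, and germ-like cells lay below Sertoli-like cells in each animal. The cattle empty droplets held B2M at 9176, 8496 and 7624 CPM, above both tubule types, and the part of free RNA in their B2M was not tested.

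In pig the same gene spread further between animals. Germ-like cells of pig 1, 2 and 3 had 199, 233 and 506 CPM. Sertoli-like cells had 440, 324 and 2391 CPM, and Leydig-like cells 1352, 701 and 2369 CPM. Pig 3 was the highest in all 3 types, and also in stromal-like cells (5734 CPM beside 1397 in pig 2) and endothelial-like cells (12990 beside 8964). Leydig-like cells of the pigs lay far below macrophage-like cells (14658, 9411 and 11501 CPM), unlike those of cattle. Dendritic-like cells had 9775 and 14734 CPM in pig 1 and 3, and lymphocyte-like cells 4110, 4198 and 5176 CPM. Macrophage-like, dendritic-like and endothelial-like cells lay above all other types without overlap, and overlapped among themselves.

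ISG15, which interferon induces as it does B2M and TAP1, was higher in pig 3 in every type, beside the other pigs with at least 20 cells of that type. It had 8.30, 22.6 and 2545 CPM in Sertoli-like cells of pig 1, 2 and 3, 39.5, 3.75 and 873 CPM in Leydig-like cells, 17.1, 13.1 and 128 CPM in germ-like cells and 295, 508 and 3285 CPM in macrophage-like cells. In cattle, animal 3 was also the highest, with 28.9, 54.0 and 177 CPM in Sertoli-like and 412, 442 and 1893 CPM in endothelial-like cells, but its Sertoli-like B2M was the lowest of the 3. The part of the interferon-stimulated genes in the B2M levels of pig 3 was not tested.

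**Figure D4:**
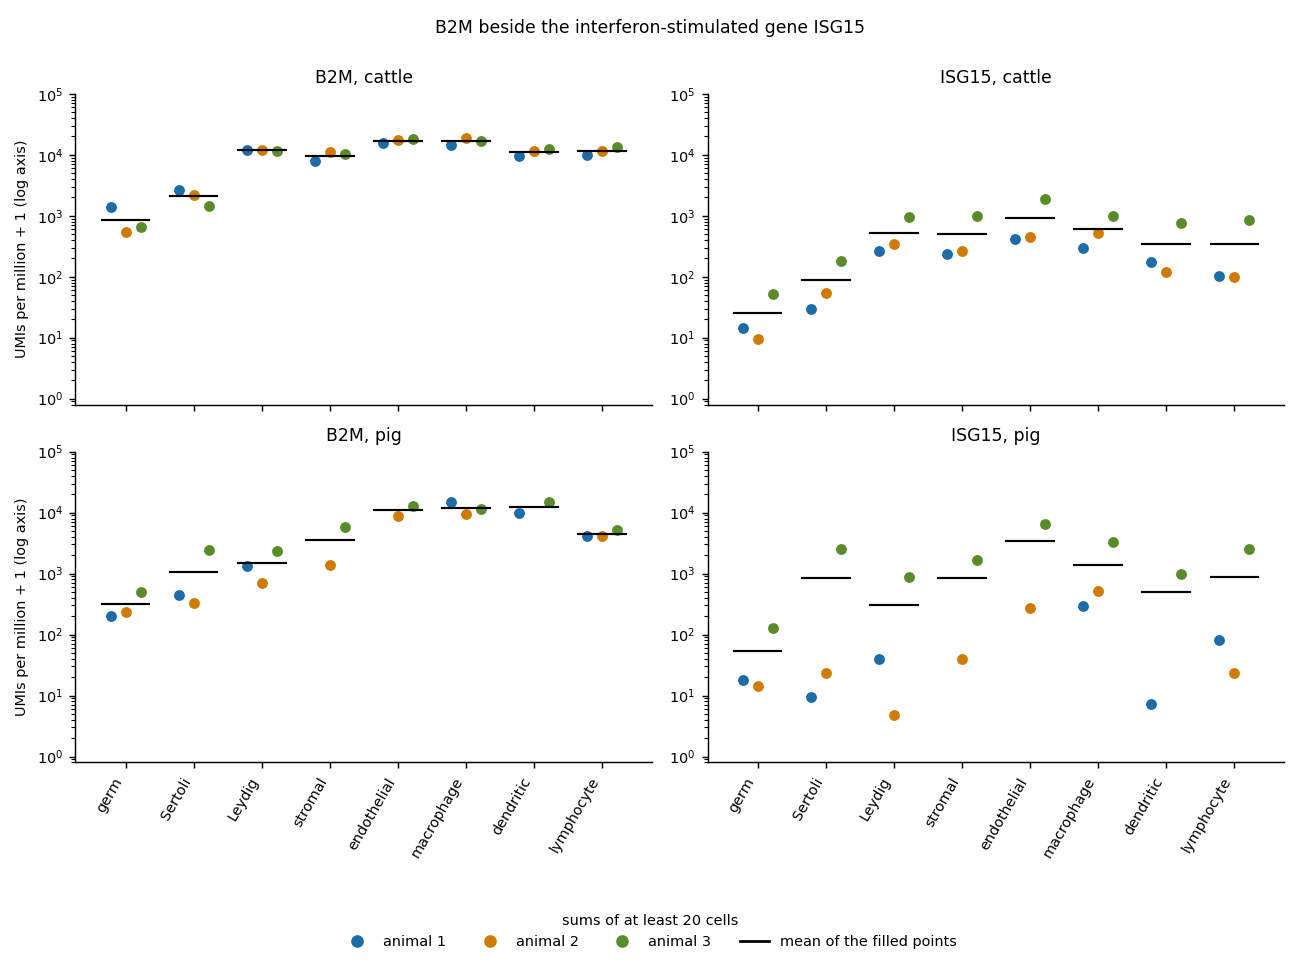
B2M and ISG15 in CPM plus 1 (log axis) by cell type, for sums of at least 20 cells, with 1 point per animal and a bar at the mean. Pig 3 is the highest pig shown for ISG15 in every type and for B2M in germ-like, Sertoli-like, Leydig-like and stromal-like cells, and only 1 other pig is shown for stromal-like, endothelial-like and dendritic-like cells.

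TAP1, the peptide pump, was lowest in the tubule types of cattle, as B2M was. In cattle 1, 2 and 3, dendritic-like cells had 489, 334 and 440 CPM, above all other types. Leydig-like cells had 122, 257 and 147 CPM, and overlapped with macrophage-like cells (182, 131 and 221 CPM) and endothelial-like cells (236, 159 and 138 CPM). Sertoli-like cells had 36.5, 32.3 and 41.5 CPM and germ-like cells 13.6, 32.1 and 23.6 CPM. The cattle empty droplets held TAP1 at 77.8, 80.4 and 98.7 CPM, above both. In pig, TAP1 had 62.7 and 146 CPM in endothelial-like cells of pig 2 and 3, 115, 46.6 and 77.9 CPM in macrophage-like cells and 2.44, 1.46 and 3.79 CPM in germ-like cells. The pig germ-like cells lay below Sertoli-like cells of the same animal (16.6, 3.31 and 28.9 CPM), with overlapping ranges, and below the range of Leydig-like cells (7.49 to 12.7 CPM).

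Macrophage-like cells were compared with the mean of the 5 non-immune types (germ-like, Sertoli-like, Leydig-like, stromal-like and endothelial-like) to ask which members stood above that mean. A member above the mean need not stand above each type. B2M and TAP1 of macrophage-like cells overlapped with those of endothelial-like cells in both species, as the levels above show. In each comparison the sums per animal were tested with edgeR, and p-values were adjusted over all genes tested. All 5 members were higher in cattle, where 9.17% of 14180 genes were higher and 5.23% lower, and all 5 in pig, where 10.8% of 15144 genes were higher and 5.94% lower. CD74 had a log2 fold change of 5.68 ± 0.23 in cattle (SE, edgeR adjusted p = 1.74e-18) and 6.08 ± 0.35 in pig (1.88e-14). CTSS had 4.98 ± 0.27 in cattle (edgeR adjusted p = 1.00e-15) and 5.40 ± 0.30 in pig (6.80e-15). The class I members changed less, with B2M at 1.69 ± 0.26 (8.25e-06) and 2.88 ± 0.39 (8.73e-07) and TAP1 at 1.24 ± 0.24 (0.000237) and 2.38 ± 0.48 (0.000384) in cattle and pig by the same test. Pig CIITA had 4.12 ± 0.52 (3.02e-07), and cattle CIITA, with 8 UMIs in macrophage-like cells, an edgeR adjusted p of 0.00127 and no fold change, since endothelial-like cells held none. Without cattle 3, TAP1 fell to 0.88 (edgeR adjusted p = 0.282), CIITA was below the count minimum and 3 members were left as higher. Over all genes tested the median log2 fold change was -0.44 in cattle and -0.36 in pig.

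Other genes of the presentation lists, counted here and throughout without the 5 members, rose in macrophage-like cells too. Of the lysosomal list, 6 of 7 rose in cattle and 8 of 8 in pig, among them CTSZ (3.75 ± 0.22 and 4.55 ± 0.23) and IFI30, a reductase of endosomes (3.64 ± 0.28 and 5.31 ± 0.33). Of the class II list, 4 of 8 rose in cattle and 4 of 6 in pig, with SLA-DMB, part of the peptide exchanger, at 6.01 ± 0.30 in pig. The class II alpha chain rose too, as BoLA DR-ALPHA in cattle (6.56 ± 0.24) and HLA-DRA in pig (6.86 ± 0.27), and both could enter the clustering, from which the members and most other list genes were held out. Of the class I list, 7 of 16 rose in cattle (median 0.69) and 5 of 11 in pig (median 1.53), with the immunoproteasome subunit PSMB8 at 1.78 ± 0.23 and 3.34 ± 0.38. All 4 costimulation genes tested in cattle and all 6 in pig rose, such as CD83 (4.31 ± 0.31 and 5.16 ± 0.42). Interferon regulators rose in 8 of 11 and 6 of 9 cases, with the receptor chain IFNGR1 at 3.30 ± 0.27 and 2.08 ± 0.32.

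Dendritic-like cells gave 4 members higher in cattle, where 5.78% of genes were higher and 3.89% lower, and 4 in pig, where 8.43% were higher and 4.98% lower. The exception in both species was CIITA (edgeR adjusted p = 0.461 in cattle, and 1.47 ± 0.90 with 0.329 in pig). This holds for the clusters that were named. An unnamed pig cluster with dendritic markers, given below, was outside this comparison and held CIITA and CD74 above the pig dendritic-like cells. CD74 led in cattle at 6.77 ± 0.24 (edgeR adjusted p = 5.85e-20), followed by CTSS at 3.67 ± 0.28 (8.76e-12), TAP1 at 2.50 ± 0.22 (3.24e-10) and B2M at 1.21 ± 0.27 (0.00191). CTSS led in pig at 7.32 ± 0.32 (edgeR adjusted p = 1.04e-16), followed by CD74 at 3.43 ± 0.37 (2.60e-08), B2M at 2.92 ± 0.43 (6.76e-06) and TAP1 at 2.35 ± 0.54 (0.00239). The cattle B2M call was lost without cattle 2 (adjusted p = 0.0761) or cattle 3 (0.254). All-gene medians were -0.82 and -0.53. The class II list rose in 5 of 8 cattle and 3 of 6 pig genes, and CST3, cystatin C, an inhibitor of cathepsins, rose in both species (4.87 ± 0.22 and 5.72 ± 0.35). Cattle dendritic-like cells held the macrophage list at 1258 to 1652 CPM with CSF1R at 0, and pig ones at 3624 to 3806 CPM with MSR1 at 0, beside 26994 to 45959 and 12935 to 20758 CPM in macrophage-like cells.

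Lymphocyte-like cells passed for different members in the 2 species, a difference that was not itself tested. In cattle, B2M (1.64 ± 0.26, edgeR adjusted p = 1.18e-05) and CTSS (1.2 ± 0.31, 0.00445) were higher, 2 of 5 members where 10.9% of genes were higher and 9.15% lower. Of these 2, CTSS lay at levels below the empty droplets. CD74 did not pass (-0.18 ± 0.29, edgeR adjusted p = 0.868). It had 0.67 (edgeR adjusted p = 0.0435) once non-immune cells with a UMI of an immune marker were left out. That setting left too few endothelial-like cells, so its non-immune mean lacked the non-immune type with the highest CD74, and the 2 values are not alike. TAP1 missed the threshold (0.60 ± 0.23, 0.0646) but passed with the animal as a block (0.00392). The CTSS call was lost without cattle 2 (0.120) or cattle 3 (0.0791). In pig, CD74 (2.49 ± 0.35, edgeR adjusted p = 4.99e-06), CIITA (2.52 ± 0.73, 0.0311) and TAP1 (2.19 ± 0.52, 0.00572) were higher, 3 of 5 members where 5.08% of genes were higher and 0.984% lower. The pig sums were small, with 21, 22 and 108 cells and 1, 3 and 67 TAP1 UMIs in pig 1, 2 and 3. They also held the stromal marker list at 488 to 3873 CPM, beside 3052 to 5396 CPM of the lymphocyte list. B2M (1.14 ± 0.42, 0.122) passed only with the block (1.34, edgeR adjusted p = 3.83e-08), with no filter, under library size scaling or without pig 3, and CTSS had 0.62 ± 0.41 (0.507). The CIITA call rested on pig 1 and pig 3 and was lost without either, at Leiden resolution 2 (0.375), with the doublet share doubled (0.0585) and with cells under 1000 UMIs left out (0.105), and the TAP1 call was lost without pig 3 (0.789) and by DESeq2 (0.0531).

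Of the lists, in cattle lymphocyte-like cells 8 of 16 class I genes rose and 1 fell, led by PSMB8 (2.09 ± 0.22) and the class I heavy chain genes BOLA (1.90 ± 0.41) and JSP.1 (1.87 ± 0.36), while 1 of 8 class II genes passed. In pig 4 of 6 class II genes rose, such as SLA-DMA (2.71 ± 0.48), beside 4 of 11 class I genes, such as NLRC5, the class I coactivator (3.35 ± 0.71). All-gene medians were -0.15 and -0.32.

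Endothelial-like cells were compared with the mean of the other 4 non-immune types. They carried both classes: 4 members were higher in cattle, where 5.04% of genes were higher and 4.22% lower, and all 5 in pig, where 12.7% were higher and 7.05% lower. In cattle CD74 had 2.95 ± 0.25 (edgeR adjusted p = 2.45e-10), CTSS 2.95 ± 0.31 (2.28e-08), B2M 1.66 ± 0.27 (4.63e-05) and TAP1 0.91 ± 0.28 (0.0365). In pig CD74 had 4.45 ± 0.38 (edgeR adjusted p = 1.46e-10), TAP1 3.53 ± 0.45 (3.40e-07), CIITA 3.52 ± 0.51 (3.42e-06), B2M 3.48 ± 0.44 (2.84e-07) and CTSS 2.67 ± 0.34 (4.20e-07). The cattle TAP1 call was lost without cattle 2 (0.147) or cattle 3 (0.287) and with the doublet share doubled (0.153). All-gene medians were -0.82 and -0.10.

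The 12 genes of the macrophage list summed to 138 to 825 CPM in cattle endothelial-like cells, with CD163 and TYROBP at 0, and to 143 to 203 CPM in pig. In cattle the upper value was the highest of the 5 non-immune types, of which the others reached at most 442 CPM, and C1Q had 648, 86.9 and 452 CPM in endothelial-like cells of cattle 1, 2 and 3. The part of macrophage RNA in their CD74 was not tested. With non-immune cells that held a UMI of an immune marker left out, pig CD74 had 4.76 and all 5 members stayed higher. Of the class II list, 1 of 8 genes rose in cattle, BLA-DQB (2.85 ± 0.31), and 4 of 6 in pig, such as SLA-DMA (4.08 ± 0.45) and SLA-DQB1 (4.05 ± 0.35). Of class II genes added to the list later, BoLA DR-ALPHA rose in cattle (2.66 ± 0.27) and HLA-DRA in pig (4.39 ± 0.29). In pig 7 of 11 class I genes rose (median 1.77), among them the peptide trimmer ERAP2 (4.47 ± 0.56) and PSMB8 (4.17 ± 0.41), and 5 of 9 interferon regulators, with the transcription factor IRF1 at 3.51 ± 0.36. In cattle 3 of 16 class I genes rose and 1 fell, and 3 of 11 regulators rose, with IFNGR1 at 2.28 ± 0.38. All 8 interferon-stimulated genes rose in pig (median 3.54) and 4 of 8 in cattle. This list was added after ISG15 was seen to lead a pig cluster of these data, so its rise in pig is no independent result. The pig endothelial-like sums came from pig 2 and 3 only, with ISG15 at 267 and 6500 CPM.

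Germ-like cells were compared with the mean of Sertoli-like, Leydig-like and stromal-like cells. Class I members fell in both species. B2M fell by 3.67 ± 0.39 on the log2 scale in cattle (edgeR adjusted p = 4.31e-09) and by 2.64 ± 0.55 in pig (0.000294), and TAP1 fell by 2.50 ± 0.30 (2.98e-08) and by 2.66 ± 0.60 (0.000666). CD74 fell by 1.36 ± 0.33 in cattle (edgeR adjusted p = 0.000769) and by 1.51 ± 0.46 in pig (0.00756). In cattle germ-like cells CD74 lay below the empty droplets, as did B2M, TAP1 and CTSS. CTSS fell by 1.87 ± 0.41 in cattle (edgeR adjusted p = 0.000258) and had -0.13 ± 0.37 in pig (0.803). CIITA passed in neither species (adjusted p = 0.264 in cattle, and 0.80 ± 0.61 with 0.289 in pig). Thus 4 members were lower in cattle, where 17.7% of genes were lower and 38.3% higher, and 3 in pig, where 19.5% were lower and 28.3% higher. The cattle CD74 call was lost without cattle 3 (adjusted p = 0.0680) and under library size scaling (-0.56, 0.0812). The all-gene medians were 0.50 and 0.27.

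Most class I genes were lower in cattle and fewer in pig, a difference that was not tested. In cattle 15 of 16 class I genes were lower (median -2.47), among them the heavy chain genes JSP.1 (-3.70 ± 0.56) and BOLA (-3.64 ± 0.62), and in pig 4 of 11 were lower and 1 higher (median -0.64), among them the tapasin gene TAPBP (-3.33 ± 0.48) and its relative TAPBPL (-3.31 ± 0.41). Of the interferon regulators, 6 of 11 in cattle and 6 of 9 in pig were lower, IRF1 among them in both species (-3.28 ± 0.34 and -2.88 ± 0.50). CD83, a costimulation gene, was higher in germ-like cells of both species (2.67 ± 0.33 and 1.76 ± 0.50). In the class II list, 2 cattle genes were higher and 1 lower, beside 1 and 2 pig genes.

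Sertoli-like cells were compared with the mean of Leydig-like and stromal-like cells, called interstitial here. The stromal list also holds contractile genes such as ACTA2 and MYH11, so stromal-like cells were not separated from the myoid cells around the tubules. In cattle 4 members were lower, where 11.9% of genes were lower and 13.6% higher: CTSS by -2.97 ± 0.43 (edgeR adjusted p = 3.37e-06), B2M by -2.46 ± 0.37 (5.10e-06), TAP1 by -1.83 ± 0.28 (6.35e-06) and CD74 by -1.33 ± 0.34 (0.00300). CIITA did not pass in cattle (0.679). In each cattle animal the 4 lower members lay below the empty droplets in Sertoli-like cells. CD74 also did so in Leydig-like and stromal-like cells, and the part of free RNA in these contrasts was not tested. In pig only CD74 was lower (-1.92 ± 0.51, edgeR adjusted p = 0.0114), where 5.50% of genes were lower and 5.76% higher. Pig B2M had -0.99 ± 0.53 (0.274), and passed with the animal as a block (-1.12, edgeR adjusted p = 0.000382), which made 2 members lower, and without pig 3 (-1.62, 0.000718). Pig CTSS had -0.81 ± 0.45 (0.300), TAP1 -0.30 ± 0.66 (0.891) and CIITA -2.47 ± 1.10 (0.164) by the same test. The CD74 calls were lost without cattle 2 (adjusted p = 0.0982) and without pig 1 (0.0815). Of the class I list 10 of 16 were lower in cattle (median -1.35) and 2 of 11 in pig, PSMB9 (-2.20 ± 0.73) and PSMB8 (-2.00 ± 0.62). CD40, a costimulation receptor, was higher in cattle Sertoli-like cells (4.02 ± 0.32), while 0 of 6 genes of its list were higher in pig. All-gene medians were 0 and 0.06.

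**Figure D5:**
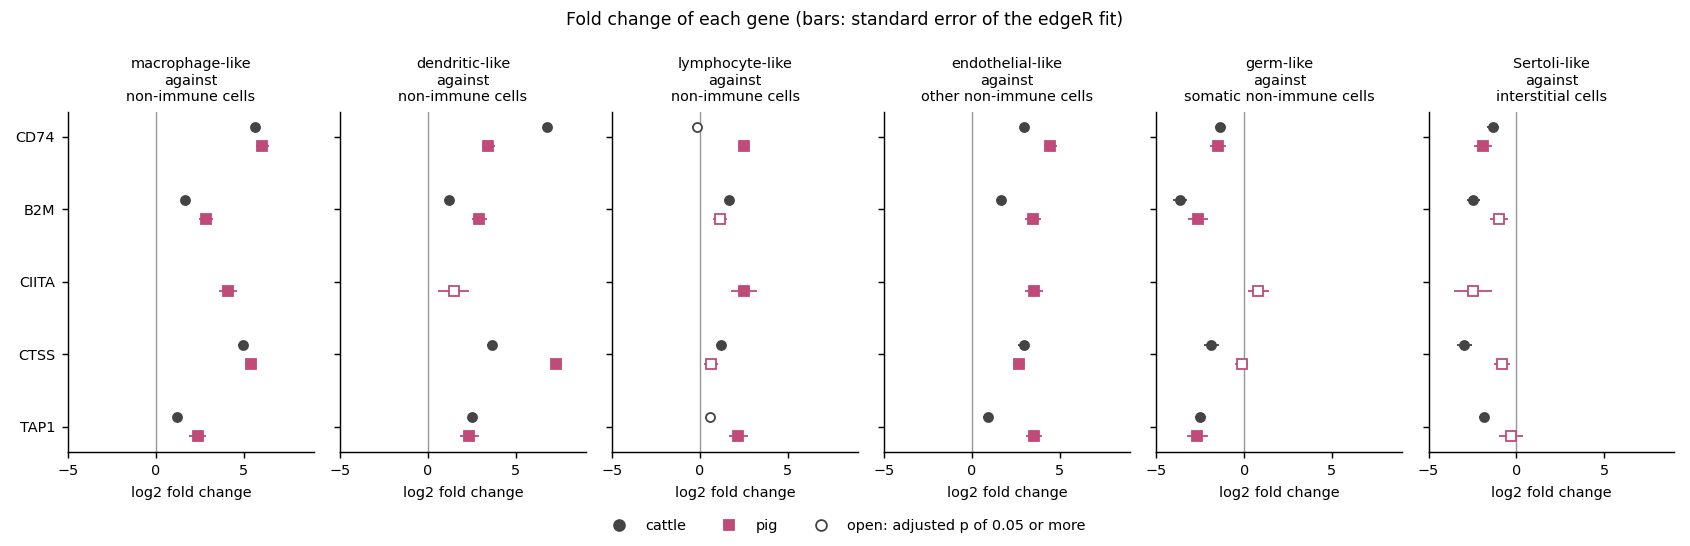
Log2 fold change of each member in the 6 comparisons, with bars for the standard error of the edgeR fit, circles for cattle and squares for pig, and open symbols for an adjusted p of 0.05 or more. CD74 has 5.68 and 6.08 in macrophage-like cells, B2M -3.67 and -2.64 in germ-like cells, and cattle CIITA is left out because each comparison held a type with at most 2 UMIs of it.

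The size of these contrasts was then tested between cattle and pig over 10460 symbols listed in both gene tables, as the cattle minus the pig log2 fold change. In endothelial-like cells 3 of 4 members with a fold change differed, where 7.59% of genes did, and all were smaller in cattle: TAP1 by -2.98 ± 0.63 (edgeR adjusted p = 0.00148), B2M by -2.17 ± 0.65 (0.0297) and CD74 by -1.86 ± 0.57 (0.0342). Over all genes the median difference in this comparison was -1.04, and it was -0.15 under library size scaling, with which none of these members passed. CD74 passed only without cattle 2 when 1 animal was left out (adjusted p of 0.0728 to 0.386 in the other cases), B2M only without pig 3, and TAP1 failed without cattle 3 (0.0553). CTSS had -0.08 ± 0.59 (1.0). In germ-like cells, where 27.6% of genes differed, CTSS did, at -2.18 ± 0.60 (edgeR adjusted p = 0.00507; without pig 1, -1.38 and 0.0745), and B2M had -1.43 ± 0.63 (0.0850), which passed with the animal as a block (-1.57, 0.000676). In Sertoli-like cells, where 10.2% of genes differed, CTSS differed at -2.05 ± 0.67 (edgeR adjusted p = 0.0394) but not without cattle 2 (0.174), cattle 3 (0.0579) or pig 3 (0.205), and with the block B2M (-1.26, 0.0198) and TAP1 (-1.39, 0.0101) did as well. In macrophage-like cells 0 members differed by edgeR, where 2.50% of genes did, although B2M (-1.38 ± 0.59, unadjusted p = 0.0249) and TAP1 (-1.31 ± 0.59, unadjusted p = 0.0296) were under 0.05 before adjustment, 2 members in all. Both passed with the block, at -1.67 (edgeR adjusted p = 0.00103) and -1.25 (0.0163).

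Among the cells left without a name, pig cluster 1 had CD74 above every named type of the pigs. It held 154 cells, 40, 32 and 82 of them in pig 1, 2 and 3, and counted FLT3, PLD4, IRF8, XCR1, BATF3 and BCL11A of the dendritic list, with CD52, S100A4 and HLA-DRA leading. CD74 was at 23992, 25756 and 24460 CPM in the 3 animals, above the named dendritic-like cells of pig, whose highest sum had 2682 CPM, and CIITA was at 102, 110 and 90.8 CPM. B2M had 6677, 7578 and 7658 CPM, CTSS 508, 650 and 635 CPM and TAP1 102, 78.3 and 162 CPM. The naming rule left them unnamed because markers of macrophages, FCER1G and TYROBP, were among their leading genes. In cattle an unnamed cluster of 21 cells, led by JCHAIN, LTB and LY6D, had CTSS at 6450 CPM and CD74 at 6006 CPM.

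Clusters of a type were not alike in the pigs. Among Sertoli-like cells, cluster 11 held 191 cells, 97.9% of them from pig 3, and had B2M at 2418 CPM and TAP1 at 29.3 CPM. Clusters 9 and 10, mostly of pig 2, had B2M at 327 and 352 CPM. Among stromal-like cells, cluster 22 had B2M at 4982 and CD74 at 733 CPM, and cluster 18 had 1249 and 191 CPM. Within pig 2 alone, cluster 22 had B2M at 2368 and CD74 at 397 CPM, and cluster 18 had 1103 and 165 CPM, so that the order of these clusters held within 1 animal.

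The genes whose levels rose and fell most like each member over the sums of types and animals were named after leaving out genes with an MHC symbol (such as BOLA, SLA or HLA), over 24 sums and 6566 genes in cattle and 22 sums and 7203 genes in pig. The sums share animals, libraries and depth, and the r values are descriptions. B2M was closest to PSME1 (0.911), PSMB8 (0.902) and IFI35 (0.888) in cattle and to PSMB8 (0.942), IFI35 (0.938) and PSMB9 (0.881) in pig. TAP1 was closest to H2AFJ (0.845), PSMB8 (0.845) and GLRX (0.840) in cattle and to PSMB8 (0.911), SERPINB9 (0.893) and PSMB9 (0.881) in pig. PSMB8 thus stood among the closest genes of both class I members in both species, and PSMB8 and PSMB9 are known to lie beside TAP1 in the MHC. CD74 was closest to FGD2 (0.943) in cattle and TSPO (0.943) in pig, and CTSS to VAMP8 (0.920) and AIF1 (0.930). Pig CIITA was closest to NFKBIE (0.862), and cattle CIITA to GHDC (0.822), the latter from few UMIs. Between members, CD74 and CTSS had r of 0.895 in cattle and 0.789 in pig, B2M and TAP1 0.784 and 0.923, and CD74 and CIITA 0.482 and 0.777. Pairs across the classes were not set apart from these. B2M and CD74 had 0.543 and 0.905, CD74 and TAP1 0.757 and 0.884, CTSS and TAP1 0.752 and 0.662, and B2M and CTSS 0.726 and 0.705. CIITA had 0.463 and 0.599 with CTSS, 0.244 and 0.564 with B2M, and 0.295 and 0.616 with TAP1.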

How the data were processed

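The authors aligned cattle reads to ARS-UCD1.2 and pig reads to Sscrofa11.1 with Cell Ranger and deposited UMI counts per gene and barcode, raw and not normalized. The submitters' notes name version 2.1.0 and the header of the pig matrices 3.0.2. The cattle files list every barcode and the pig files only those of at least 500 UMIs. The mouse library was not analysed here. The labels number testes within a species and tag animals, and each library was taken as 1 animal.

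Cells were called by the Cell Ranger 2 rule at 3000 expected cells, with at least 200 genes, and the highest Scrublet scores, 0.8% per 1000 cells, were left out as doublets. Cells of each species were clustered in scanpy 1.11.5 on 2000 variable genes, 30 components and 15 neighbours, with Leiden clustering (igraph 0.11.9) at resolution 1. The members, the genes of the lists, genes named BOLA or SLA and mitochondrial genes were held out, though HLA-DRA, BoLA DR-ALPHA and the genes of 3 lists added later were not. A marker counted with a UMI in 5% of cells and a level 2-fold above the median cluster (10 CPM added), 3 markers gave a name, and clusters whose leading 10 genes or second-best type (over 0.7 of the best score, a limit set after the clusters had been seen) spoke for another type stayed unnamed.

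Raw counts were summed per animal and type, over at least 20 cells. The quasi-likelihood test of edgeR 4.0.16 (R 4.3.3) was run on genes with at least 10 counts, scaled by TMM, and p-values were adjusted by Benjamini-Hochberg over all genes tested, with a threshold of 0.05. DESeq2 1.42.0 was an alternative. The script was tested on simulated data. Each comparison set a type against the equal-weight mean of the types named, and species were compared as a difference of contrasts over symbols listed once in both tables. Types of 1 animal share a library and are paired: deviations from type means correlated with a median r of 0.213 within an animal in cattle (84 pairs of sums, lowest 0.0742) and 0.192 in pig (64 pairs, lowest 0.0857), beside -0.134 and -0.0826 between animals. A replicate block for the animal was therefore fitted too. Intervals and the 3-UMI limit for counts of 0 cover counting error only.

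The members and lists were chosen with earlier results of these data known, and the interferon-stimulated list was added after ISG15 was seen to lead a pig cluster. Named were the members, at most 3 called genes of a list with the largest fold change per comparison, and the 3 genes most like each member by Pearson r of log2(CPM + 10) among genes with a mean of at least 10 CPM. Promoter windows came from the RefSeq annotation of Sscrofa11.1. Cattle coordinates and sequence were not used here. The result of 1 list gene and 1 motif searched are not reported here.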

Additional observations from a re-analysis of the deposited data

Results flagged for a closer look

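Contrasts of 4 members differed in size between cattle and pig by the edgeR test of the difference itself, given as cattle minus pig log2 fold change with its SE. In endothelial-like against other non-immune cells these were TAP1 at -2.98 ± 0.63 (edgeR adjusted p = 0.00148), B2M at -2.17 ± 0.65 (0.0297) and CD74 at -1.86 ± 0.57 (0.0342), each with a larger rise in pig, while the median over all genes was -1.04. Of all genes, 7.59% differed there. The B2M and CD74 calls were lost in most fits with 1 animal left out, as given above. In germ-like against somatic non-immune cells CTSS had -2.18 ± 0.60 (edgeR adjusted p = 0.00507), and in Sertoli-like against interstitial cells -2.05 ± 0.67 (0.0394), each lower in cattle and not called in pig, with all-gene medians of 0.03 and 0.10. In these comparisons 27.6% and 10.2% of all genes differed, so a differing gene was common in germ-like cells. Species, age, breed and gene annotation cannot be told apart in this comparison. Cattle 1 had 24 endothelial-like cells, and pig 3, 1 of the 2 pigs behind the endothelial-like sums, had ISG15 at 6500 CPM in them, beside 267 CPM in pig 2. The part of either in these differences was not tested.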

How the results depend on the processing

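Over the member fold changes recomputed under each alternative, 710 of 788 kept their direction and their side of the threshold, 38 lost the call, 19 gained one and 21 changed sign. The adjusted p of CIITA in cattle and between species kept its side in 95 of 95 cases that gave one, with 0.000161 to 0.0048 for cattle macrophage-like cells. Only the latter contrast of CIITA passed with the main settings. Without cattle 3 CIITA was below the count minimum, so the setting in which that call was lost is not among these cases. Counts of members called kept within 1.5 times in 156 of 179 cases. In macrophage-like cells of cattle the count of 5 fell to 3 without cattle 3 (range 3 to 5 when 1 animal was left out). In lymphocyte-like cells of cattle the count of 2 ranged from 1 to 3. It was 4 with immune-marker cells left out, where the non-immune mean lacked endothelial-like cells. In Sertoli-like cells of pig the count of 1 ranged from 0 to 2 and was 2 with no filter on low counts. The counts of members differing between species, 3 in endothelial-like, 1 in germ-like and 1 in Sertoli-like cells, each ranged from 0 to 2 without 1 animal, and that of endothelial-like cells was 0 under library size scaling. DESeq2 gave no adjusted p for CIITA in cattle macrophage-like cells, and their count was 4 by it. The causes were not tested.

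With the animal as a replicate block, 2 members differed between species in macrophage-like cells, 2 in germ-like and 3 in Sertoli-like cells, and 2 were lower in pig Sertoli-like cells. The calls it added are given beside each result, 8 in all, and it changed no other call of a member.

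Signs turned for 7 of the members' results, all short of the threshold with the main settings. Pig CTSS in germ-like cells was 0.04 under library size scaling, 0.04 with no filter, 0.11 at Leiden resolution 2, 0.09 with immune-marker cells left out and -0.76 to 0.26 without 1 animal. Cattle CD74 in lymphocyte-like cells was 0.67 with immune-marker cells left out, 0.30 with cells under 1000 UMIs left out and -0.39 to 0.01 without 1 animal, and pig TAP1 in Sertoli-like cells was -1.35 to 0.14 without 1 animal. Between species, CTSS in endothelial-like cells was 0.97 under library size scaling, 0.01 with no filter and -0.24 to 0.50 without 1 animal. In germ-like cells CD74 was 0.64 and TAP1 0.56 under library size scaling, and -0.59 to 0.05 and -0.61 to 0.17 without 1 animal. CD74 in macrophage-like cells was -1.24 to 0.15 without 1 animal.

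Scaling moved all genes. Under library size alone the all-gene median went from 0.50 to 1.23 in cattle germ-like, from -0.15 to -0.57 in cattle lymphocyte-like, from -0.82 to -0.45 in cattle endothelial-like and from -0.36 to -0.66 in pig macrophage-like cells, and by DESeq2 to 0.20 and 0.24 in cattle macrophage-like and dendritic-like cells. The difference between species in endothelial-like cells had an all-gene median of -1.04, and -0.15 under library size alone. The share of calls that were higher moved from 54.3% to 30.8% in cattle lymphocyte-like cells (DESeq2 42.0%), from 54.4% to 81.1% in cattle endothelial-like cells (DESeq2 72.9%), from 68.4% to 84.6% in cattle germ-like cells, from 64.5% to 43.9% in pig macrophage-like cells, from 64.3% to 52.7% in endothelial-like cells of pig and from 51.2% to 38.8% in its Sertoli-like cells (DESeq2 32.6%). By DESeq2 alone it moved from 59.1% to 42.5% in pig germ-like and from 59.8% to 70.0% in cattle dendritic-like cells. Genes lower in cattle germ-like cells went from 2512 to 1396 under library size alone, and those lower in cattle Sertoli-like cells from 1694 to 2695 with the block. Genes differing between species went from 261 to 746 in macrophage-like, from 794 to 1598 in endothelial-like and from 1065 to 2097 in Sertoli-like cells with the block, and from 794 to 341 in endothelial-like cells under library size alone.

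Cattle CIITA rested on few UMIs, at most 7 in a sum of macrophage-like cells. The alternative without immune-marker cells could not be run for cattle endothelial-like cells, of which too few were left. In that alternative the non-immune mean of the cattle comparisons was taken without them. Shares of cells moved by more than their spread in 48 of 80 cases on thinning to 500 UMIs.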

Other observations

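CD40, a costimulation receptor, was higher in Sertoli-like than in interstitial cells of cattle (4.02 ± 0.32 on the log2 scale, edgeR adjusted p = 5.59e-11), as was CD83 (1.70 ± 0.40, 0.00138), although 4 of the 5 members were lower there. In pig 0 of 6 costimulation genes were higher in Sertoli-like cells. Pig CD40 had 8.3, 2.05 and 4.52 CPM in them, beside 7.64, 3.75 and 10.3 CPM in Leydig-like cells of pig 1, 2 and 3. Stromal-like cells of pig 2 and 3 had 18.9 and 18.8 CPM. In pig germ-like cells PDCD1LG2, a ligand of the T cell checkpoint receptor, was lower (-2.79 ± 0.67, edgeR adjusted p = 0.00125), as it was in pig Sertoli-like cells (-3.94 ± 0.84, 0.00194).
Cathepsin and cystatin genes of the lysosomal list did not all move with CTSS. In cattle endothelial-like cells CTSS rose while CTSD fell (-1.86 ± 0.33, edgeR adjusted p = 0.000169) and CST3 fell (-0.95 ± 0.30, 0.0383). In pig Sertoli-like cells CST3 was higher (1.85 ± 0.42, edgeR adjusted p = 0.00367), while IFI30 (-3.92 ± 0.61, 7.22e-05) and LGMN (-2.86 ± 0.42, 3.33e-05) were lower.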
